A study of Homo sapiens with 6 samples.

Results

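The expressed genes of human chromosome 4 were followed from one end of the chromosome to the other, to locate where a lower RNA level in knockout cells began and where it ended. A member is a chromosome 4 gene whose estimated count averaged at least 50 over the 6 libraries, and members were ordered by their start on hg38. The rule kept 555 of the 1156 chromosome 4 genes listed, out of 15574 genes that reach that count on all chromosomes. The chromosome was selected on the measured difference between the groups in these same libraries, so the size of that difference and every count of members drawn from it are given here as description, with no test.

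Total RNA was sequenced, after removal of ribosomal RNA, from HEK 293T, a line derived from human embryonic kidney that carries the SV40 large T antigen. The wild-type line (WT) and a line in which both TENT3A/B genes were targeted (ΔTUT4/7) gave 3 libraries each, with no treatment. TENT3A and TENT3B are other names for TUT4 and TUT7, the enzymes that add uridines to the 3′ ends of RNAs and so mark them for decay. The knockout cells were made earlier by another laboratory and the WT cells came from a cell bank, so the knockout and the history of the line cannot be told apart, and with a single line in each group the p-values measure only the spread between libraries of that line.

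Chromosome 4 has a short arm (p) and a long arm (q), and the genes that follow each other along it belong for the most part to unrelated pathways. A gene's RNA level is set by its own promoter, by enhancers in the region, by how many copies of the gene a cell holds and by how fast the RNA decays, so neighbours need not share a level. HEK 293T cells carry an abnormal set of chromosomes, and sublines are known to differ from each other in it. DNA was not measured in the files used here. In bulk RNA, fewer cells carrying a transcript and less RNA per cell cannot be told apart.

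The libraries held between 18757228 and 33148937 counts. TUT4 goes against the knockout label, with 212, 216 and 206 CPM (counts scaled to a common library size with TMM factors) in WT and 882, 920 and 917 CPM in the libraries labelled ΔTUT4/7, and a count over the whole gene does not show whether the transcript is intact. TUT7 was at 60.4, 62.6 and 64.8 CPM in WT and 27.2, 25.2 and 26.5 CPM in ΔTUT4/7. All 6 markers of the line that were looked up, VIM, CDH2, NEFL, INA, PAX2 and LHX1, had counts in every library. Their levels differed between the groups and in both directions, so counts alone do not show that the 2 lines match. On the log2 scale (ΔTUT4/7 over WT), INA was at 3.74, VIM at 1.33 and CDH2 at 1.19. NEFL was at -1.74, LHX1 at -0.98 and PAX2 at -0.56, and LHX1 and PAX2 did not exceed 4.37 CPM in any library. The hepatocyte gene ALB, which lies on chromosome 4, did not exceed 0.234 CPM in any library. PTPRC, CD3E, KRT5 and COL1A2 were not analysed here.

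Because the map turns on pairs of neighbouring genes, the bases between the starts of 3 pairs of protein-coding genes that are transcribed away from each other are printed, read from hg38 on the plus strand with CpG dinucleotides in capitals. DCAF16 and NCAPG form the last such pair before the lower stretch, PPAT and PAICS a pair inside it whose groups overlapped, and UBE2D3 and CISD2 a pair inside it in which both genes were lower. All 3 intervals lie between annotated genes in the deposited coordinates.
DCAF16 to NCAPG, chr4:17810759-17810978: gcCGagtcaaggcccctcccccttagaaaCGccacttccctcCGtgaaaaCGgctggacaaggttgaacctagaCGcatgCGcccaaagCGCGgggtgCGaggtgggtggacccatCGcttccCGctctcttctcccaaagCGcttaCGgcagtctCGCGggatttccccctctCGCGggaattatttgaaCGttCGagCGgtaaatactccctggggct
PPAT to PAICS, chr4:56435616-56435740: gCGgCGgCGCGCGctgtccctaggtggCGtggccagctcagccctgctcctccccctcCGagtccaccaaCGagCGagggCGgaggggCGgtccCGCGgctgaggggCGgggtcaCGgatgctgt
UBE2D3 to CISD2, chr4:102868897-102868973: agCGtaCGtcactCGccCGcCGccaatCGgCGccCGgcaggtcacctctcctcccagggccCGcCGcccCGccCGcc
The intervals held 20 CpG in 220 bases, 15 in 125 and 12 in 77, in that order, and their GC content was 60.5%, 76.0% and 79.2%. All 3 are short, CpG-rich intervals between a pair of genes, of the kind from which transcription often starts in both directions.

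Chromosome 4 members were lower in ΔTUT4/7 than in WT on the whole. Their median log2 fold change (ΔTUT4/7 over WT) was -0.40, with quartiles of -0.84 and 0.04, which places the median member at 76.0% of its WT level. The 15019 genes of the other chromosomes had a median of 0.07. The 23 chromosomes ranged from chromosome 4, the lowest, through chromosome 13 at -0.23, chromosome 15 at -0.22 and chromosome 22 at -0.20, to chromosome 10 at 0.38. Of the 555 members, 400 (72.1%) had a fold change below 0, beside 44.6% of the genes of the other chromosomes. At a Benjamini-Hochberg FDR of 0.05 in edgeR's quasi-likelihood test, 338 members were lower and 94 higher, beside 29.0% lower and 28.6% higher over all 23952 tested genes. At least 2-fold lower were 104 members and at least 2-fold higher were 17, beside 12.4% and 5.90% of all tested genes. Of the 15574 genes at the members' count limit, 31.7% were called lower and 39.2% higher, and 8.25% and 5.59% by at least 2-fold. The 3 ΔTUT4/7 libraries all lay below the 3 WT libraries for 340 members (61.3%) and all above them for 101 (18.2%). The shares over all tested genes were 31.8% and 30.9%, and these were not taken at the members' count limit.

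The lower level did not cover the whole chromosome. A segmentation that minimises absolute deviations from a segment median placed 1 break, at 25.1 Mb, in the 89.1 kb between the end of LGI2 and the start of SEPSECS. The 106 members before it, from ABCA11P at 0.425 Mb to LGI2, had a median of 0.10, close to the median of the other chromosomes, and the 449 members after it had a median of -0.49. With the penalty for an extra break halved, a second break fell at 133 Mb, between the lncRNA gene AC105383.1 and PCDH10, whose coordinates are 0.146 kb apart. These breaks divide the members into a distal short-arm stretch, a middle stretch of 304 members from SEPSECS to AC105383.1 that spans the centromere and 108 Mb, and a distal long-arm stretch of 145 members from PCDH10 to FRG1, which ends at 190 Mb. Their medians were 0.10, -0.61 and -0.21, that is 107%, 65.6% and 86.6% of the WT level, and the first of them was -0.015 when counts were scaled by library size alone. With a squared-error cost in place of absolute deviations the single break fell at 13.4 Mb, and with the penalty doubled no break was placed.

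**Figure D1:**
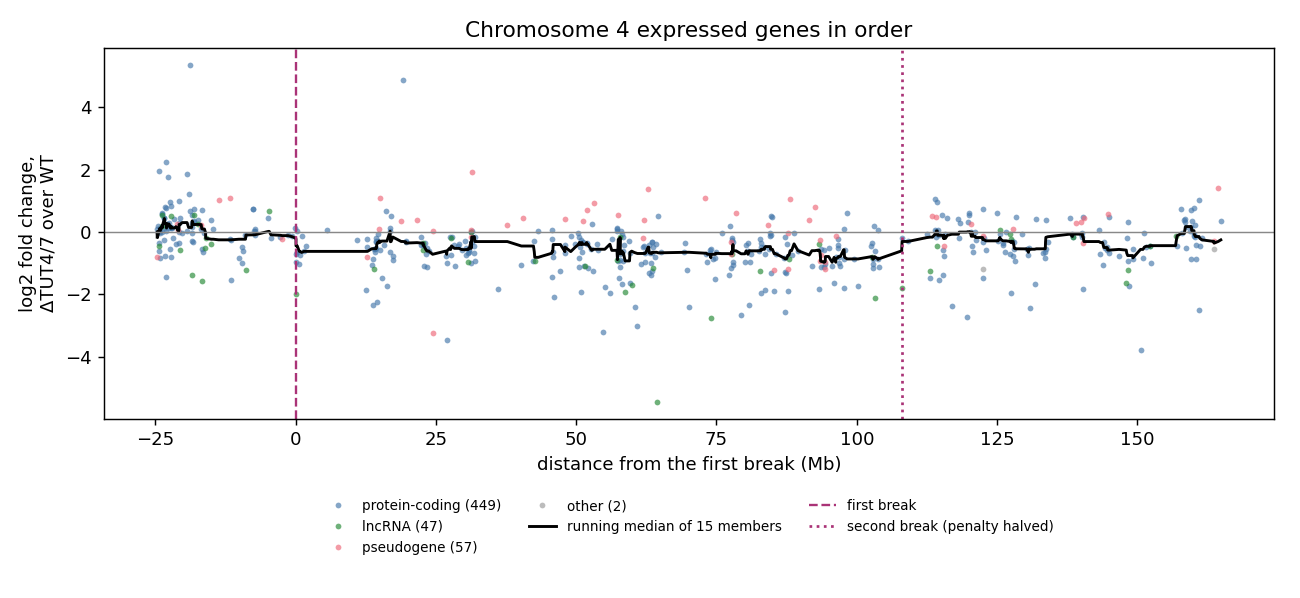
Log2 fold change (ΔTUT4/7 over WT) of the 555 chromosome 4 members against the distance of their start from the first break in Mb, coloured by gene class, with a running median of 15 members in black and the 2 breaks as vertical lines. The running median lies mostly above 0 at the far left and mostly slightly below 0 on the way to the first break, falls further at the break and lies below 0 up to the second break, and is nearer to 0 beyond it.

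The middle stretch had the lowest level of the 3, though without the halved penalty it formed 1 segment with the distal long-arm stretch. In the middle stretch 258 of 304 members (84.9%) were below 0. Called lower were 233 (76.6%), called higher 23 (7.57%) and at least 2-fold lower 80 (26.3%). In the distal short-arm stretch 43 of 106 members (40.6%) were below 0, with 32 (30.2%) called lower and 41 (38.7%) called higher. The distal long-arm stretch lay between them, with 99 of 145 members (68.3%) below 0, 73 (50.3%) called lower and 30 (20.7%) called higher. Of the 15019 genes of other chromosomes, 44.6% were below 0, 30.6% were called lower, 40.1% higher and 7.86% at least 2-fold lower.

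The 3 ΔTUT4/7 libraries gave the same picture one by one. Against the WT mean, the median log2 difference of the middle stretch was -0.62, -0.57 and -0.59 in ΔTUT4/7 libraries 1, 2 and 3, that of the distal short-arm stretch 0.10, 0.08 and 0.08, and that of the distal long-arm stretch -0.21, -0.23 and -0.23. Each WT library set against the other WT libraries gave -0.02, 0.05 and -0.04 in the middle stretch. Segmenting each ΔTUT4/7 library on its own put the first break at 25.1, 25.1 and 22.6 Mb and, with the penalty halved, the second at 133, 138 and 133 Mb. For each edge, 2 of the 3 libraries gave the same gap.

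As a share of the counts of all 15574 genes that reach the count limit, the middle stretch took 1.99% ± 0.05 of counts in WT (SD, n = 3) and 1.36% ± 0.02 in ΔTUT4/7. The single libraries held 1.99%, 2.04% and 1.94% in WT and 1.35%, 1.38% and 1.36% in ΔTUT4/7, and the groups did not overlap. The distal long-arm stretch took 0.775% ± 0.023 in WT and 0.638% ± 0.004 in ΔTUT4/7, again without overlap. The distal short-arm stretch took 0.528% ± 0.008 in WT and 0.555% ± 0.005 in ΔTUT4/7, and here the ΔTUT4/7 libraries were the higher ones. All members together made up 3.29% ± 0.08 of WT counts and 2.56% ± 0.02 of ΔTUT4/7 counts.

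**Figure D2:**
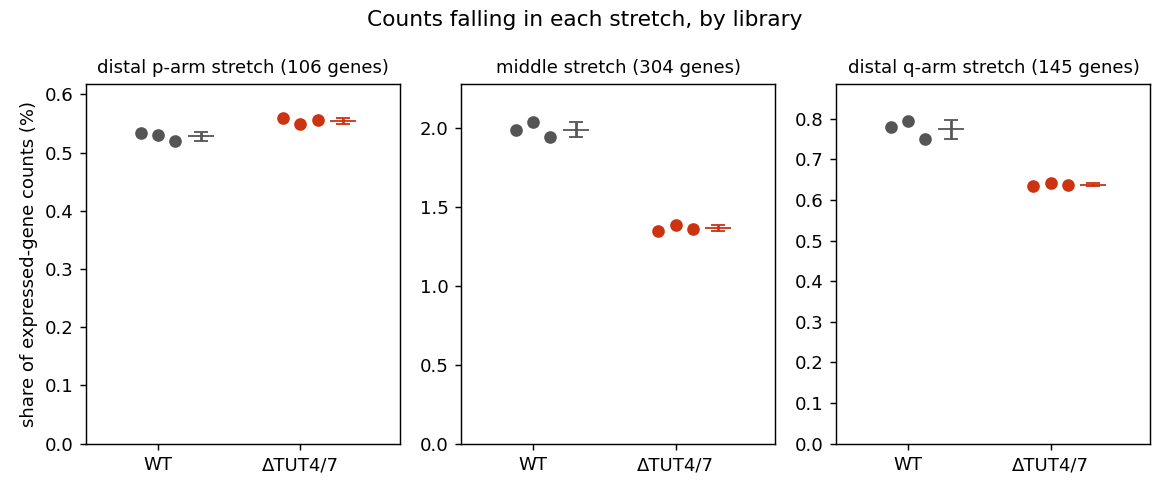
Share of expressed-gene counts (%) falling in each of the 3 stretches, with a point for each library and, beside the points, the mean and SD of the 3 libraries of the group; the short arm is marked p and the long arm q. In the middle stretch every ΔTUT4/7 library lies below every WT library, and in the distal short-arm stretch every ΔTUT4/7 library lies above.

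The genes beside the first break are given one by one. The break was placed on these same fold changes, so a difference across it is description and no support for its place. On its near side, DHX15, an RNA helicase of spliceosome disassembly, was at 298, 326 and 316 CPM in WT and 289, 290 and 287 CPM in ΔTUT4/7 (log2 fold change -0.12 ± 0.04, SE). The pseudogene CDC42P6 and PPARGC1A, also before the break, were at -0.24 ± 0.09 and -0.11 ± 0.22. LGI2, a secreted leucine-rich repeat protein and the last member before the break, was at 12.4, 15.2 and 14.2 CPM in WT and 15.5, 14.7 and 15.2 CPM in ΔTUT4/7, and the groups overlapped. Across the break, SEPSECS, which makes selenocysteinyl-tRNA, was at 30.1, 29.9 and 25.4 CPM in WT and 14.7, 14.3 and 14.1 CPM in ΔTUT4/7 (-0.98 ± 0.09). All 3 ΔTUT4/7 libraries lay well below the WT libraries, which LGI2 did not show.

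The genes that follow were mostly lower, but not all. PI4K2B, a phosphatidylinositol kinase transcribed away from SEPSECS, was at 116, 117 and 105 CPM in WT and 66.2, 73.2 and 65.6 CPM in ΔTUT4/7 (-0.72 ± 0.06). The antisense gene SEPSECS-AS1 was at 4.07, 5.27 and 4.66 CPM in WT and 1.37, 0.773 and 1.33 CPM in ΔTUT4/7 (-1.98 ± 0.22). It overlaps PI4K2B, and both are annotated on the plus strand. Counting by strand would thus not separate them, and reads of the pair cannot be told apart. ANAPC4, a subunit of the anaphase-promoting complex, was at 51.7, 56.7 and 52.5 CPM in WT and 54.9, 59.3 and 51.1 CPM in ΔTUT4/7, and its groups overlapped. RBPJ, the DNA-binding partner of Notch, was lower by a small amount (-0.13 ± 0.04), with every ΔTUT4/7 library below every WT library. The longest gap without a member on the chromosome, the 4.80 Mb between PCDH7 and ARAP2, follows in this stretch.

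**Figure D3:**
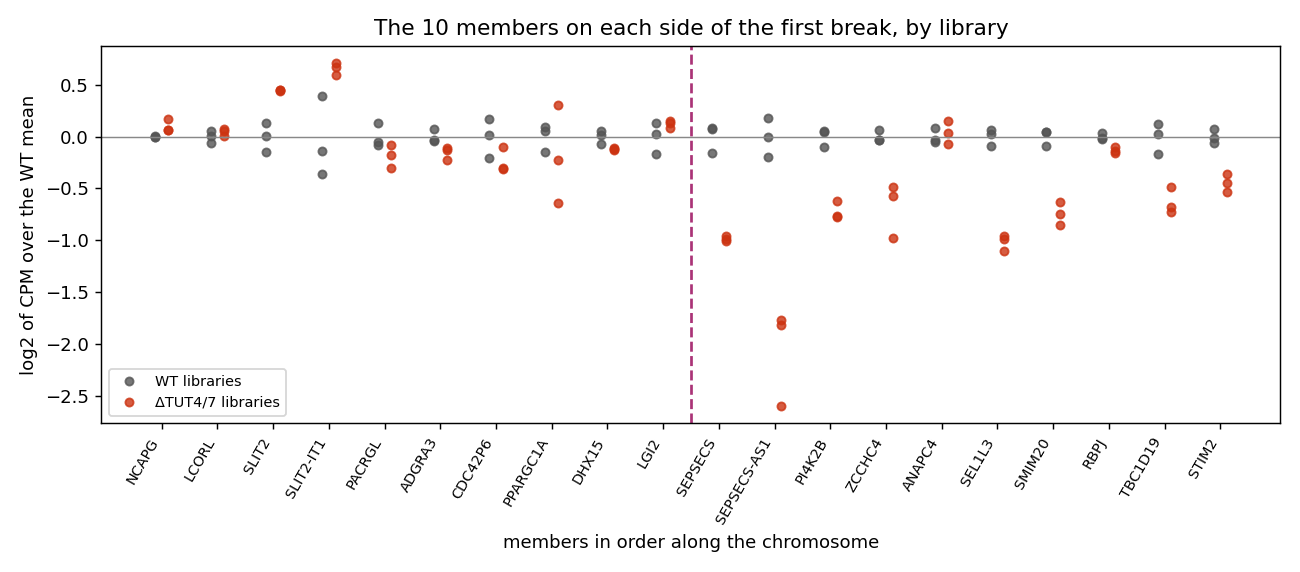
The 10 members on each side of the first break in their order along the chromosome, each library plotted as the log2 of its CPM over the WT mean of that gene. To the left of the dashed line the ΔTUT4/7 points lie above the WT points for SLIT2 and below them for DHX15, and overlap them for LGI2 and CDC42P6. To the right SEPSECS, SEPSECS-AS1, PI4K2B, ZCCHC4, SEL1L3, SMIM20, RBPJ, TBC1D19 and STIM2 lie below them, while ANAPC4 does not.

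The level declined towards the first break, and the lowest bins of the middle stretch lay in the long arm. In bins of 10 Mb the median log2 fold change was 0.13 up to 10 Mb, where 78 of the 106 members before the first break lie, -0.10 between 10 and 20 Mb, with 11 of 20 members below 0, and -0.22 between 20 and 30 Mb, a bin that holds the break and in which 13 of 18 members were called lower. Part of the decline thus precedes the break. The median was -0.52 between 30 and 40 Mb, -0.42 between 40 and 50 Mb and -0.45 between 50 and 60 Mb. It was -0.61 between 60 and 70 Mb, where only 8 members lie, and -0.45 between 70 and 80 Mb. It was -0.69 between 80 and 90 Mb, -0.70 between 90 and 100 Mb, -0.56 between 100 and 110 Mb, -0.84 between 110 and 120 Mb and -0.81 between 120 and 130 Mb. The running median over 15 members was lowest, at -0.97, at USP53, a tight-junction protein of the ubiquitin protease family, and highest, at 0.43, at SLBP near the start of the chromosome. The longest runs of protein-coding members that were all below 0 held 30 genes each, from GUF1 to PPAT between 44.7 and 56.4 Mb and from ENPEP to BBS12 between 110 and 123 Mb. Their medians were -0.55 and -0.85.

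Beyond the second break the bins were mixed. They stood at -0.09 between 130 and 140 Mb, -0.19 between 140 and 150 Mb, -0.38 between 150 and 160 Mb and -0.15 between 160 and 170 Mb, and the last bin, between 180 and 190 Mb, at -0.05. An exception was the bin from 170 to 180 Mb, where 15 of 17 members were below 0 and the median was -0.76. It holds GPM6A, a neuronal membrane glycoprotein, at 14.9, 18.8 and 20.1 CPM in WT and 1.40, 1.13 and 1.28 CPM in ΔTUT4/7, which was the member furthest below its segment (-3.80 ± 0.15). It also holds HMGB2, a chromatin protein of dividing cells, at 218, 200 and 252 CPM in WT and 108, 131 and 111 CPM in ΔTUT4/7 (-0.94 ± 0.12).

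The genes beside the second break did not all change side with it. AC105383.1 was at 8.25, 9.65 and 10.0 CPM in WT and 2.62, 2.37 and 3.01 CPM in ΔTUT4/7. PCDH10, a protocadherin and the next member, was at 74.4, 65.3 and 71.1 CPM in WT and 63.4, 56.5 and 65.3 CPM in ΔTUT4/7 (-0.18 ± 0.06). SLC7A11, the cystine transporter subunit of system xc-, lies past the break and was at 213, 239 and 210 CPM in WT and 80.4, 78.1 and 80.4 CPM in ΔTUT4/7 (-1.47 ± 0.05). A few genes on, NOCT, an NADP(H) phosphatase related to the deadenylases, was at 15.5, 14.1 and 13.7 CPM in WT and 31.6, 30.1 and 28.4 CPM in ΔTUT4/7 (1.06 ± 0.08). Between SLC7A11 and NOCT lies the alternative position of the second break, at 138 Mb.

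The lower level of the middle stretch was carried by protein-coding and lncRNA genes. Of its 244 protein-coding members, 221 were below 0, 202 were called lower and 10 higher, and their median was -0.63. Its 23 lncRNA genes had a median of -0.96 and 22 of them were called lower. Its 37 pseudogenes had a median of 0.23, with 15 below 0, 9 called lower and 13 called higher. On the other chromosomes the medians were 0.10 for protein-coding genes, -0.18 for lncRNA genes and 0.14 for pseudogenes. In that order, 30.4%, 39.5% and 21.6% of them were called lower and 43.7%, 18.9% and 34.9% higher. In the middle stretch 82.8% of protein-coding and 95.7% of lncRNA genes were called lower. Its pseudogenes, with 24.3% lower and 35.1% higher, were near the shares of pseudogenes elsewhere. Several of the pseudogenes are processed copies of abundant genes on other chromosomes, and an estimated count shares reads among near-identical sequences, so their values are uncertain. HSP90AB3P, a copy of the heat shock protein gene HSP90AB1, was at 109, 98.8 and 97.8 CPM in WT and 259, 262 and 268 CPM in ΔTUT4/7 (1.37 ± 0.05). GLDCP1 was at 4.12, 3.00 and 3.52 CPM in WT and 13.8, 12.1 and 13.9 CPM in ΔTUT4/7 (1.92 ± 0.13). Both stand inside the middle stretch, with every ΔTUT4/7 library above every WT library.

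**Figure D4:**
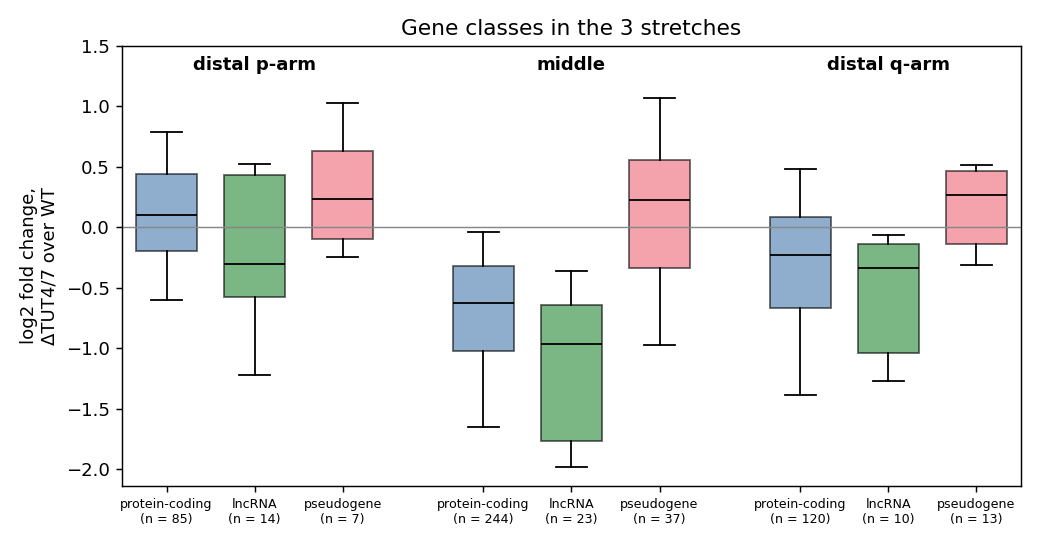
Log2 fold change (ΔTUT4/7 over WT) of protein-coding genes, lncRNA genes and pseudogenes in the 3 stretches, as boxes of the quartiles with the median and whiskers from the 10th to the 90th percentile, and the number of genes under each box. In the middle stretch the protein-coding and lncRNA boxes lie below 0, at medians of -0.63 and -0.96, and the pseudogene box reaches above 0.

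Other features separated the members less. In the middle stretch the median was -0.58 for the 155 members on the plus strand and -0.65 for the 149 on the minus strand. By mean count it was -0.80 for the class of fewest counts, -0.71 for the middle class and -0.49 for the class of most counts, when all members were split into 3 equal classes. The 187 tested genes of the same stretch with a mean count under 50, which are no members, had a median of -1.03. The members just inside that limit were MAB21L2, with a mean count of 50.2 and a log2 fold change of -0.06, and PTGES3P3, with 50.5 and 0.59. Those just outside were AC097382.3, with 49.7 and -0.40, and AC021205.3, with 49.3 and -1.51. Across the 276 members of the middle stretch with a matched annotation, Spearman's rho of the fold change was -0.26 with transcript length and -0.004 with GC content, against -0.14 and 0.10 over 13347 genes of other chromosomes. These are correlations across genes of the same libraries, and genes are not independent replicates. The median GC content of the matched transcripts was 52.0% in the distal short-arm stretch, 41.3% in the middle stretch and 40.9% in the distal long-arm stretch. On other chromosomes it was 47.5%. Transcript GC content was thus lower in the 2 stretches after the first break, as was the level. Medians by stretch do not show where along the chromosome GC content falls. Its part in the result was not tested beyond the correction given with the alternatives. The RefSeq promoter table, 250 bases before to 50 bases after each start on GRCh38, held 400 of the members. Their median GC content was 65.3%, as on other chromosomes. By stretch it was 72.0% in the distal short-arm, 63.3% in the middle and 65.8% in the distal long-arm stretch. The median number of CpG was 36, 25 and 28 in that order. The letters TATAAA, on either strand, were found in 5.75% of member promoters, 5.73% of promoters of expressed genes elsewhere and 11.97% of all 27195 promoters.

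Genes that pointed away from each other with close starts had a smaller median difference than neighbours in general. That difference was not tested, and the neighbours were not matched for distance. Among members, 35 pairs of protein-coding genes pointed away from each other with starts within 1000 bases. The pairs of PIGY and of PYURF with AC098582.1 count among them with identical values for PIGY and PYURF, which have the same start. The median difference between partners was 0.31 on the log2 scale, beside 0.58 for the 448 pairs of neighbouring protein-coding members. Both partners were below 0 in 23 pairs, both above 0 in 5 pairs, and 7 pairs had opposite signs. Among the 448 pairs of neighbours these counts were 274, 46 and 128, in that order, and agreement in sign was not tested. SLBP, the histone mRNA stem-loop binding protein, and TACC3, a spindle protein, were at 0.44 ± 0.06 and 0.43 ± 0.05 in the distal short-arm stretch. UBE2D3, a ubiquitin-conjugating enzyme, and CISD2, an iron-sulphur protein of the endoplasmic reticulum, were at -0.25 ± 0.05 and -0.21 ± 0.06.

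Some pairs went against the stretch around them. PPAT and PAICS catalyse steps of purine synthesis, and PPAT was at 125, 128 and 117 CPM in WT and 119, 127 and 119 CPM in ΔTUT4/7. PAICS was at 473, 485 and 491 CPM in WT and 484, 505 and 491 CPM in ΔTUT4/7. Both pairs of groups overlapped, in a stretch in which most neighbours were lower. NOP14, a ribosome assembly factor before the first break, was higher (0.84 ± 0.06), while its partner GRK4, a receptor kinase, was lower (-0.79 ± 0.12). MAPK10 and PTPN13, a stress kinase and a tyrosine phosphatase, were both lower but by different amounts, -3.02 ± 0.16 and -1.02 ± 0.04.

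Protein complexes put a member beside genes of the same role on other chromosomes. In 20 complexes, 27 subunits encoded by members were compared with the median of their partners encoded elsewhere. All 17 subunits of the middle stretch lay below that median, with a median difference of -0.63, and 10 of them lay below every partner. In the distal long-arm stretch 7 of 8 lay below it, and in the distal short-arm stretch 1 of 2. The median partner median beside the middle-stretch subunits was 0.16. The middle stretch was cut on these same fold changes, and 84.9% of all its members were below 0. That order was thus largely set beforehand, and it is description and no separate support for the lower level.

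COPII, the coat of vesicles that leave the endoplasmic reticulum, has 3 subunits in the middle stretch. SEC24D was at 62.9, 67.9 and 63.5 CPM in WT and 29.9, 29.4 and 29.7 CPM in ΔTUT4/7 (-1.13 ± 0.06). SEC31A was at 144, 147 and 147 CPM in WT and 78.9, 79.5 and 78.0 CPM in ΔTUT4/7 (-0.89 ± 0.05), and SEC24B had a log2 fold change of -0.56 ± 0.06. The 7 partners elsewhere had a median of 0.07 and the lowest of them was at -0.03, so all 3 lay below every partner. RFC1, the large subunit of the clamp loader, was at 190, 184 and 201 CPM in WT and 133, 133 and 129 CPM in ΔTUT4/7 (-0.54 ± 0.05) beside a partner median of 0.27. METTL14 of the m6A methyltransferase was at -0.56 ± 0.06 beside 0.07, and POLR2B of RNA polymerase II at -0.16 ± 0.04 beside 0.41, both below every partner. MAD2L1 of the spindle checkpoint was at -0.51 ± 0.07 beside 0.11. The ribosomal protein gene RPL34 was at 239, 242 and 227 CPM in WT and 162, 181 and 167 CPM in ΔTUT4/7 (-0.47 ± 0.05) beside 0.16 for 72 partners, though some of those partners were lower still. Subunits at or above 0 in the same stretch were GAR1 at 0.50 ± 0.13 beside 0.74, ANAPC4 at 0.04 ± 0.06 beside 0.42 and COPS4 at 0.04 ± 0.07 beside 0.37. They too lay below the median of their partners. The exceptions to that order were CENPU of the centromere complex, in the distal long-arm stretch, at 0.17 ± 0.05 beside -0.22, and the condensin subunit NCAPG, before the first break, at 0.10 ± 0.05 beside -0.06.

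**Figure D5:**
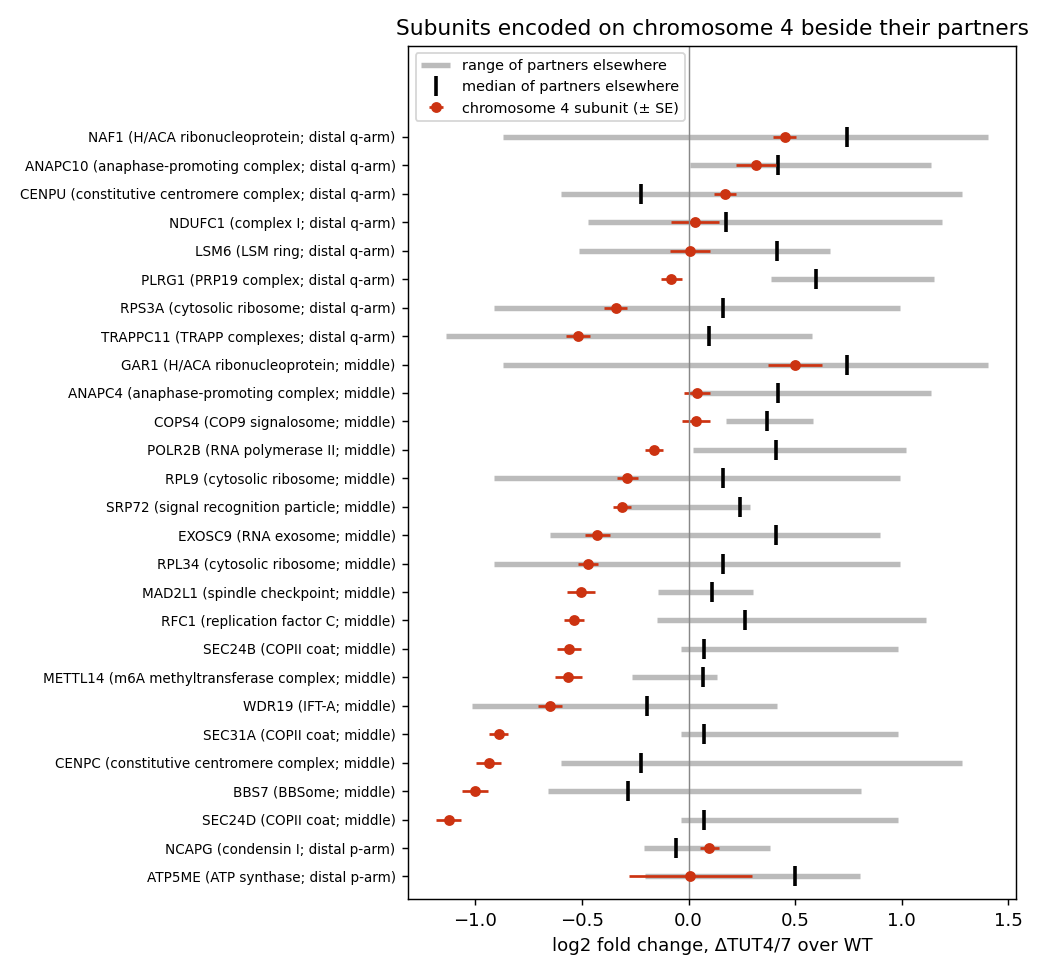
Log2 fold change (ΔTUT4/7 over WT, ± SE) of the 27 complex subunits encoded by chromosome 4 members, with the median and range of the partners encoded on other chromosomes, ordered by stretch. All 17 subunits of the middle stretch lie to the left of the median of their partners.

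Grouped by role, the counts of each list are to be read beside the shares of all genes and of all members. Of all tested genes, 29.0% were called lower and 28.6% higher. Of the 15574 genes at the members' count limit, 31.7% were called lower and 39.2% higher. Of chromosome 4 members, 60.9% were called lower and 16.9% higher, with a median of -0.40. None of the lists was tested against these shares. Of 18 members for membrane traffic and cilia, 14 (77.8%) were called lower and none higher, beside 76.6% lower in the middle stretch, where 11 of the 18 lie, and their median was -0.50. Of 18 adhesion, matrix and axon guidance genes, 15 (83.3%) were lower and 1 higher, with a median of -0.61. UNC5C, a netrin receptor, was at 54.3, 55.6 and 50.1 CPM in WT and 10.2, 9.85 and 9.55 CPM in ΔTUT4/7 (-2.43 ± 0.07). ADGRL3, a latrophilin, was at 93.2, 102.3 and 91.9 CPM in WT and 27.3, 25.4 and 27.6 CPM in ΔTUT4/7 (-1.84 ± 0.06). The one that was higher, SLIT2, an axon guidance ligand, lies before the first break and was at 401, 366 and 331 CPM in WT and 498, 495 and 499 CPM in ΔTUT4/7 (0.44 ± 0.06).

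Of 19 growth factor, receptor and signalling genes, 13 (68.4%) were lower and 1 higher, with a median of -0.58. HHIP, which binds and restrains hedgehog ligands, was at 37.0, 41.5 and 36.9 CPM in WT and 6.52, 5.46 and 5.06 CPM in ΔTUT4/7 (-2.74 ± 0.10). INPP4B, a phosphoinositide phosphatase, was at -2.39 ± 0.15 and the receptor kinase KIT at -0.57 ± 0.09. SPRY1, an inhibitor of receptor kinase signalling in the middle stretch, was the one that was higher (0.60 ± 0.09). FGFR3, before the first break, was at 58.8, 52.6 and 55.6 CPM in WT and 31.2, 31.3 and 34.5 CPM in ΔTUT4/7 (-0.78 ± 0.06), one of the 32 lower members of that stretch.

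Of 19 cell cycle and chromosome genes, 13 (68.4%, near the share of all members) were lower and 3 higher, with a median of -0.40, that of all members. PLK4, the kinase of centriole duplication, was at 94.0, 104 and 103 CPM in WT and 49.4, 48.6 and 49.8 CPM in ΔTUT4/7 (-1.03 ± 0.05). CENPC, which anchors the kinetochore, was at 77.6, 79.5 and 79.4 CPM in WT and 41.0, 43.97 and 38.6 CPM in ΔTUT4/7 (-0.94 ± 0.06). The cyclin gene CCNA2, also in the middle stretch, was nearer to 0 (-0.23).

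In the remaining lists the share called lower was at or below 50%, under the 60.9% of all members and above the 29.0% of all tested genes. Of 26 transcription and chromatin genes, 12 (46.2%) were lower and 7 higher, with a median of -0.02. TET2, a dioxygenase of DNA demethylation, was at 87.9, 88.2 and 86.9 CPM in WT and 43.1, 45.0 and 45.4 CPM in ΔTUT4/7 (-0.98 ± 0.05). NSD2, a histone methyltransferase before the first break, was called higher by only 0.11 and was at -0.0048 when scaled by library size alone and at -0.0051 with limma. Of 14 ribosome and translation genes, 7 (50%) were lower and 2 higher (median -0.22). EIF4E, the cap-binding protein, was at 102.1, 105 and 92.9 CPM in WT and 66.3, 68.2 and 66.3 CPM in ΔTUT4/7 (-0.58 ± 0.05), and ABCE1, a ribosome recycling factor of the distal long-arm stretch, was higher (0.61 ± 0.05). Of 18 RNA processing and decay genes, 8 (44.4%) were lower and 5 higher (median -0.04). Of 23 ubiquitin, proteostasis and cell death genes, 10 (43.5%) were lower and 8 higher (median -0.06). Of 22 genes of mitochondria and metabolism, 11 (50%) were lower and 6 higher (median -0.22), among them SLC25A4, the adenine nucleotide carrier of the distal long-arm stretch, at 24.1, 23.5 and 24.2 CPM in WT and 41.8, 41.9 and 39.2 CPM in ΔTUT4/7 (0.78 ± 0.07). These medians stand beside 0.06 over all 15574 genes that reach the count limit.

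The 10 protein-coding members of the middle stretch that were called higher, against their neighbours, included UCHL1, BEND4, KCTD8, HNRNPDL, NFKB1, GAR1, ELOVL6, SPRY1 and LARP1B, of which BEND4 and KCTD8 were chosen after their values were seen. UCHL1, a neuronal ubiquitin hydrolase, was at 85.7, 75.6 and 76.3 CPM in WT and 126, 128 and 123 CPM in ΔTUT4/7 (0.67 ± 0.05). KCTD8, a subunit of GABA-B receptors, was at 0.102, 0.231 and 0.163 CPM in WT and 4.93, 5.67 and 4.85 CPM in ΔTUT4/7, 29.4-fold higher. HNRNPDL was higher by 0.11 ± 0.04 and was at -0.0031 when scaled by library size alone and at -0.0029 with limma.

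The members furthest from the median of their segment were single genes at scattered positions, ranked here among members with a mean count of 100 or more, which leaves out KCTD8. Furthest above was PPP2R2C, a regulatory subunit of protein phosphatase 2A before the first break, at 0.407, 0.269 and 0.457 CPM in WT and 16.5, 13.5 and 17.5 CPM in ΔTUT4/7 (5.37 ± 0.19). NAT8L, which makes N-acetylaspartate, was at 10.1, 7.77 and 7.60 CPM in WT and 42.0, 38.4 and 38.6 CPM in ΔTUT4/7 (2.24 ± 0.10), and CRMP1, an axon guidance mediator, had a log2 fold change of 1.84 ± 0.09. Furthest below, beside GPM6A, were SPATA18, a regulator of mitochondrial quality, at 22.9, 21.0 and 18.1 CPM in WT and 1.75, 2.11 and 1.74 CPM in ΔTUT4/7 (-3.47 ± 0.14), and ANTXR2, an anthrax toxin receptor, at 33.7, 33.5 and 33.8 CPM in WT and 3.34, 3.71 and 3.98 CPM in ΔTUT4/7 (-3.21 ± 0.10). MAPK10, HHIP and CXXC4 followed. In each of these genes every library of one group lay on the same side of every library of the other.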

How the data were processed

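Total RNA of WT and ΔTUT4/7 HEK 293T cells was depleted of ribosomal RNA and sequenced as 3 libraries per group. The authors aligned reads to hg38 with STAR 2.7.3a and used the expectation-maximisation model of Partek Flow to quantify Ensembl genes, and the deposited values are estimated counts, of which 45.2% to 50.0% per library were not whole. They were rounded to whole numbers here for the tests. The stop column lay 1 base past the GENCODE 44 end for 741 of 770 chromosome 4 genes with the same start, so ends are given with that base taken off. A table of the authors' own comparison, which holds p-values, FDR, ratios, fold changes and least-squares means, was not used.

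Genes whose largest count was above 12 were tested with edgeR 4.0.16 under R 4.3.3 (TMM factors, robust quasi-likelihood fit, no covariates beside group), and p-values were adjusted over 23952 genes by the Benjamini-Hochberg method. CPM are TMM-scaled. Shares of counts are taken over the 15574 genes that reach the count limit of 50. Members were segmented by exact minimisation of absolute deviations (at least 10 members a segment, penalty of 3 times the natural log of the number of members in units of the scale of first differences), and both the test and the segmentation were tested on simulated data. GC content and length came from GENCODE 44 for 91.2% of members. Sequences between gene starts were read from hg38.

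The members, gene lists and complexes were chosen with earlier results of these data known. Named are the members of the role lists and complexes, the 4 members on each side of a break, the 2 with the largest mean CPM in each segment, the 6 furthest above and below their segment's median at a mean count of 100 or more, those beside the limit of 50, and TUT4 and TUT7, and others are named as examples. Counts within a group differed by more than sampling noise (chi-square per degree of freedom 2.33 to 9.14), so no library was a duplicate of another. Libraries of between 18757228 and 33148937 counts set the precision. Alternatives covered scaling, test, count limits, gene class, GC and length, replicate block, penalty, segment size and cost, and leaving out each library.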

Additional observations from a re-analysis of the deposited data

How the results depend on the processing

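The number of members called lower was 338 and lay between 297 (GC and length correction) and 370 (limma) under other scalings, tests and filters on tested genes. The number called higher was 94 and lay between 74 and 110 under them. The GC and length correction, which gave the 297 and the 110, held only the 506 members with a matched annotation. Its counts and its median are thus of fewer members than the 338, the 94 and the main median. Of the protein-coding members alone, 290 were lower and 71 higher. The median of the members was -0.51 with library size alone, -0.50 with upper-quartile scaling, -0.46 with limma on log2(CPM + 1), -0.33 after the GC and length correction, -0.38 at a mean count of 100 or more, -0.46 at 10 or more, -0.43 for protein-coding members and -0.38 for ΔTUT4/7 library 3 alone. Library size alone, upper-quartile scaling and limma lowered the median of all 15574 genes by 0.1 or more (from 0.06 to -0.05, -0.04 and -0.05). With them the median of the distal short-arm stretch was -0.015, -0.00024 and -0.016, HNRNPDL was at -0.0031 (library size) and -0.0029 (limma), and NSD2 at -0.0048 and -0.0051, so their directions are read relative to that shift. Leaving out each library in turn gave 319 to 335 members lower, 84 to 98 higher and a median of -0.40 to -0.38. The first break was at 22.6 Mb in ΔTUT4/7 library 3 alone and at 13.4 Mb with a squared-error cost, and with the penalty doubled there was 1 segment and no break. The second break was at 138 Mb at a mean count of 10 or more and in ΔTUT4/7 library 2 alone. The cause of these moves was not tested. Same-numbered libraries did not deviate together (correlations 0.05, -0.01 and -0.02), so the numbers are not a pairing. With a replicate block, 337 members were lower, 98 higher and the median was -0.39.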
